A study of Mus musculus with 12 samples.

Results

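Large clusters of MED1 peaks that ranked among the 300 largest of mouse embryonic stem cells after 2 h of 4-hydroxytamoxifen (4OHT), and overlapped none of the 300 largest at 0 h, are described here. For each time, MED1 regions called in both clones were joined over gaps of up to 12.5 kb, the distance customary for super-enhancers, and ranked by covered bases, the bases that lie under peaks. This gave 117 new clusters among the 300 of 2 h. They hold 1226 of the 78166 regions obtained by merging the 8 peak lists of the study. The members were thus chosen by MED1 covered bases. The other 183 clusters of 2 h overlapped a cluster of the 0 h 300 and are called shared, and 116 clusters were among the 300 at 0 h alone. MED1 values are given as a description, without a test. The MED24 lists played no part in the choice of clusters. Their peaks do enter the merged regions, and 79 of the 1226 members have no MED1 peak in any library.

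The cells were of the E14tg2a line (129SV background) and stably carried a cRAF-ErT2 cassette, a RAF kinase fused to an estrogen receptor domain that 4OHT switches on. All cells were first grown with serum, LIF and 2 µM Chir99021, an inhibitor of GSK3, and then for 24 h with serum, LIF and 250 nM PD173074, an inhibitor of FGF receptors. The 2 h group then received 250 nM 4OHT, and the 0 h group was left untreated. Clones a and b were each used once per group, and chromatin was precipitated with an antibody against MED1 or, for MED24, with anti-FLAG. This gave 8 peak lists, 2 per group, while the 4 inputs were not analysed here. Since no library without the cassette or with vehicle was analysed here, the drug, time and ERK signalling cannot be told apart. All 7 embryonic stem cell marker genes, among them Pou5f1, Sox2 and Nanog, had a MED1 peak within 10 kb in all 4 MED1 libraries. Such peaks were also present at 3 of 10 fibroblast, 2 of 6 primitive endoderm and 3 of 5 trophectoderm genes, with none at Postn, Dcn, Lum, Gata6 or Sox7 in any library, and none of these marker genes lay in a new cluster. A peak at a gene is not a measure of its expression.

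Mediator is a large complex that carries signals from transcription factors bound at enhancers to RNA polymerase II at promoters. MED1 is the subunit contacted by nuclear receptors and many other activators, and MED24 is a neighbouring subunit of the tail. Dense stretches of Mediator, often called super-enhancers, lie near genes that set cell identity and near genes that respond strongly to a signal. ERK, the last kinase of the RAF cascade, switches on immediate early transcription factors and, with them, inhibitors of its own pathway such as the Sprouty proteins and the dual-specificity phosphatases.

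The starts of 122 protein-coding genes lay in 118 of the member regions, in 68 of the 117 clusters. The promoters of the first 4 such genes in order of cluster size, leaving out the cluster at Spry4, are shown because their start regions give the clusters' MED24 values a place and a sequence. Each runs from 250 bases before to 50 bases after the start, as given by RefSeq for GRCm38.p6 (the assembly of mm10), on the + strand. Capitals mark a match to the AP-1 motif TGANTCA in the Plaur promoter and to the TEAD motif GGAATG, read on the other strand, in the Ahnak promoter. The promoters of Cadm4 and Arntl held none of the 4 motifs searched.
Plaur, chr7:24462233-24462532: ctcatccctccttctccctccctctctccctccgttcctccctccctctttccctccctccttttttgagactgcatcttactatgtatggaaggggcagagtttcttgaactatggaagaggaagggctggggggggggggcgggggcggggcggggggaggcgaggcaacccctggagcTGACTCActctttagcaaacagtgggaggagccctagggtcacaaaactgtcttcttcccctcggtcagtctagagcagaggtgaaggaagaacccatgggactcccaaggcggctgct
Cadm4, chr7:24481773-24482072: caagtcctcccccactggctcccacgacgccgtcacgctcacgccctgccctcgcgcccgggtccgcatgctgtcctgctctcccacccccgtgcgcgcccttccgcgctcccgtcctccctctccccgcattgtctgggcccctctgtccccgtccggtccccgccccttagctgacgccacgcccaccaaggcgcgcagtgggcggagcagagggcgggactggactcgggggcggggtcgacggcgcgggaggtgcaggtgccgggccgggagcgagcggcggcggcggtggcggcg
Ahnak, chr19:8989034-8989333: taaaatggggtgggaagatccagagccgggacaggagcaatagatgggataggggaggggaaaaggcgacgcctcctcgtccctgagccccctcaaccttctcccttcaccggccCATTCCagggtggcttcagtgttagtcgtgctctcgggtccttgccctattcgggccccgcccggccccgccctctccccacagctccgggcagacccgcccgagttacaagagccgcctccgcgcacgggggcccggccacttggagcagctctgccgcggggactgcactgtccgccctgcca
Arntl, chr7:113207215-113207514: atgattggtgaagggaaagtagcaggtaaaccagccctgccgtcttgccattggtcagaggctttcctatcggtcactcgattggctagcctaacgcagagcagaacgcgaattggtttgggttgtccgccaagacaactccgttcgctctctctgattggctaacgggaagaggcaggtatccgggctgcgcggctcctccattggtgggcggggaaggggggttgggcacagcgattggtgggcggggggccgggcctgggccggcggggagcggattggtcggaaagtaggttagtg

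The member region at the start of Plaur, the urokinase receptor gene, stood at the 99.2 and 99.3 percentile of the MED24 lists at 2 h (clones a and b), against 76.3 and 70.1 at 0 h. The percentile is the rank of the region's best peak by the authors' score within its own list, where 100 is the strongest. The region at the start of Ahnak, which encodes a very large scaffold protein of the cell cortex, stood at 96.9 and 96.7 at 2 h, against 84.3 and 47.8 at 0 h. At Arntl, the circadian clock gene also known as Bmal1, the start region stood at 74.9 and 60.5 at 2 h, against 1.64 and 27.7 at 0 h. The start region of Cadm4, a cell adhesion molecule gene, stood at 56.1 and 58.2 at 2 h, against 30.3 in clone a and no peak in clone b at 0 h. In these 4 promoter regions both 2 h libraries lay above both 0 h libraries. They lie in clusters ranked 9, 13 and 27 by MED1 at 2 h, which the rule used. Of the 425 members called in all 4 MED24 libraries, 61.2% had a higher percentile at 2 h in both clones. Over all 21232 regions so called, the share was 34.4%.

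Of the 144 promoter windows in member regions, 4.17% held the AP-1 motif TGANTCA, against 5.45% of the 422 windows in shared clusters and 6.99% of all 21263 windows. The ETS motif CCGGAAG was found in 16.7%, against 15.6% in shared clusters and 11.6% of all windows. The TEAD motif GGAATG was found in 12.5%, against 14.9% and 13.6%, and the CArG box in 2.08%, against 2.61% and 1.52%. Both strands were searched, none of the 4 motifs contains another, and a match describes letters in this window and nothing more.

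The new clusters spanned 8.331 to 70.896 kb (median 34.168 kb), and MED1 regions covered 7.022 to 21.697 kb of them (median 8.789 kb). A cluster held 2 to 18 stitched MED1 regions (median 7) and 3 to 30 member regions (median 9). They overlapped 0 to 7 protein-coding genes (median 1). No protein-coding gene was overlapped by 11 of them, and 1 cluster, on chromosome X, had none within 100 kb. The clusters lay on every chromosome except Y, with 11 each on chromosomes 6 and 11, 10 on chromosome 17 and 9 on chromosome 19, where 1 cluster of 0 h alone lay. Another new cluster was found within 250 kb of 19 of the 117 (16.2%), against 56 of 183 shared clusters (30.6%) and 12 of 116 clusters of 0 h alone (10.3%).

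The word new refers to the rank and not to the first appearance of MED1. At 0 h, 115 of the 117 already overlapped a smaller MED1 cluster, and the largest such cluster had a median rank of 901 among 18400, with ranks of 303 to 13086. Of these, 39 ranked below 300 but no lower than 600, 25 between 600 and 1000, and 51 below 1000. The clusters at Plec, which encodes the cytoskeletal linker plectin, and Etv6, an ETS family repressor gene, overlapped no MED1 cluster at 0 h and are named for that. Stitching also matters, since 50 of the 117 overlapped more than 1 MED1 cluster of 0 h. In 3, at Atf7ip, Scd2 and Fat1, the 2 h cluster held fewer covered bases than the 0 h clusters together (10.935 kb at 2 h, against 11.111 kb at 0 h, at Atf7ip), so these are new because the 0 h regions were not joined into 1 cluster. In further new clusters the 0 h clusters together also exceeded 6.70 kb, the size of the last of the 300 at 0 h. These lie at Klf6 (7.53 kb in 3 clusters at 0 h), from Rundc3a to Fam171a2 (9.321 kb in 4), from H13 to Id1, and at Tcf7l2 and Fscn1. The others lie at Gm34296, at Rad21 and Aard, from Acap1 to Ybx2 and from Ptpn6 to Lrrc23. The 117 clusters held 1009.86 and 1074.99 kb under MED1 peaks at 2 h (clones a and b), against 489.69 and 478.209 kb at 0 h. In 108 clusters both 2 h libraries held more MED1 bases than both 0 h libraries, and in 9 the libraries of the 2 times overlapped. These MED1 counts follow largely from the rule, and the share over all MED1 clusters of 2 h was not counted.

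The threshold of 300 fell in a continuous range of sizes. The last cluster inside it had 7.022 kb of covered bases at 2 h and the next had 7.006 kb. At 0 h these values were 6.70 and 6.697 kb. Just inside were the new clusters at Ripor1 and Ctcf (7.046 kb), at Dido1 and Gid8 (7.027 kb) and from Ccdc142 to Rtkn (7.022 kb). The nearest clusters that failed only by size lay from Spatc1 to Maf1 (6.971 kb), at Btbd9 and Glo1 (6.954 kb) and at Mtf2 (6.895 kb). Inside the threshold, both 2 h MED24 libraries lay above both 0 h libraries at Ctcf (5.122 and 6.218 kb at 2 h, against 3.613 and 3.104 kb at 0 h) and from Ccdc142 to Rtkn (4.611 and 4.157 kb, against 3.319 and 3.545 kb). The libraries of the 2 times overlapped at Dido1 (4.409 and 4.932 kb, against 4.296 and 4.421 kb). Outside it, they lay above from Spatc1 to Maf1 (5.681 and 6.255 kb, against 4.351 and 3.725 kb), at Btbd9 (5.584 and 5.443 kb, against 4.321 and 4.694 kb) and, by little, at Mtf2 (5.653 and 6.11 kb, against 5.64 and 5.182 kb).

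The first question was whether MED24, which did not choose the clusters, was also more extensive there at 2 h. MED24 peaks covered 751.032 and 859.651 kb of the new clusters at 2 h, against 451.619 and 426.48 kb at 0 h. Both 2 h values lay far above both 0 h values, with means of 805 ± 76.8 kb at 2 h and 439 ± 17.8 kb at 0 h (SD, n = 2 each). The difference of 366 kb corresponded to 1.83-fold, 1.66-fold in clone a and 2.02-fold in clone b. The exact two-sided permutation test over the 4 libraries gave p = 0.333, which is the lowest value possible with 2 libraries per time, so no difference between the times can pass a threshold of 0.05 in this design.

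Whole MED24 lists also differed in length, 22.4 and 26.6 Mb covered at 2 h, against 22.8 and 20.8 Mb at 0 h, so shares of each list were compared as well. The new clusters held 3.35% and 3.23% of all MED24 bases at 2 h, against 1.98% and 2.05% at 0 h. That is a mean difference of 1.28 percentage points, with 1.37 for clone a and 1.18 for clone b (exact permutation p = 0.333). Shared clusters held 1453.63 and 1657.9 kb of MED24 at 2 h, against 1584.5 and 1504.74 kb at 0 h, and these libraries overlapped (1.01-fold, exact permutation p = 1). As a share of each list, shared clusters were lower at 2 h, with 6.49% and 6.23%, against 6.94% and 7.22% at 0 h. That is a mean difference of -0.72 percentage points (exact permutation p = 0.333). The log2 ratio of MED24 bases in new over shared clusters was -0.95 in both 2 h libraries, against -1.81 and -1.82 at 0 h. The difference was 0.86 on the log2 scale, 0.86 in clone a and 0.87 in clone b, and exceeded the spread between clones (exact permutation p = 0.333). New and shared clusters were divided by MED1, a subunit of the same complex, so MED24 is not independent of that division. Of all regions called in all 4 MED1 libraries, 84.8% were called in all 4 MED24 libraries. Clusters of 0 h alone, chosen for the reverse MED1 pattern, held 486 ± 53.6 kb of MED24 at 2 h and 765 ± 20.2 kb at 0 h (SD, n = 2 each), 0.636-fold.

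**Figure D1:**
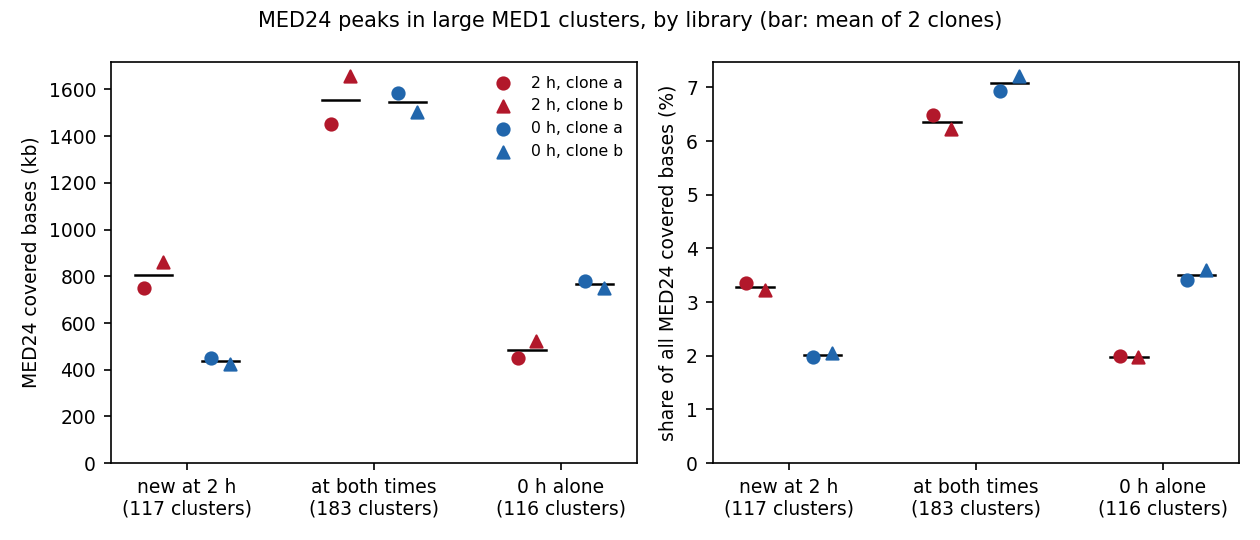
MED24 covered bases (left, kb) and their share of each MED24 list (right, percent) in new clusters, shared clusters and clusters of 0 h alone, with 1 point per library and a bar for the mean of 2 clones. In the new clusters the 2 h points lie at 751.032 and 859.651 kb, above the 0 h points at 451.619 and 426.48 kb. In the shared clusters the libraries overlap in kb (left), but both 2 h points lie below both 0 h points in share (right).

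Cluster by cluster, MED24 covered more bases in both 2 h libraries than in both 0 h libraries in 105 of the 117 new clusters (89.7%). Over all 21726 MED1 clusters of 2 h, large or small, this share was 49.2%, and among the shared clusters it was 60 of 183 (32.8%). Only 2 new clusters, at Atf7ip and Actg1, had less MED24 in both 2 h libraries, against 11.4% of all MED1 clusters of 2 h and 51 of 183 shared clusters. In the other 10 the libraries of the 2 times overlapped. The mean MED24 of a new cluster had a median of 6.44 kb at 2 h (quartiles 5.58 and 7.70 kb), against 3.54 kb at 0 h (quartiles 2.71 and 4.91 kb). The fold of 2 h over 0 h had a median of 1.77 and ranged from 0.869 to 21.0. It exceeded 2 in 40 clusters and 5 in 9, those at Arntl, Pla2g7, S100a3 to S100a6, Pomc and Efr3b, Slc26a2 and Pde6a, Cavin1, Twsg1, Nefl and Etv6. These 9 are named because of their values.

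**Figure D2:**
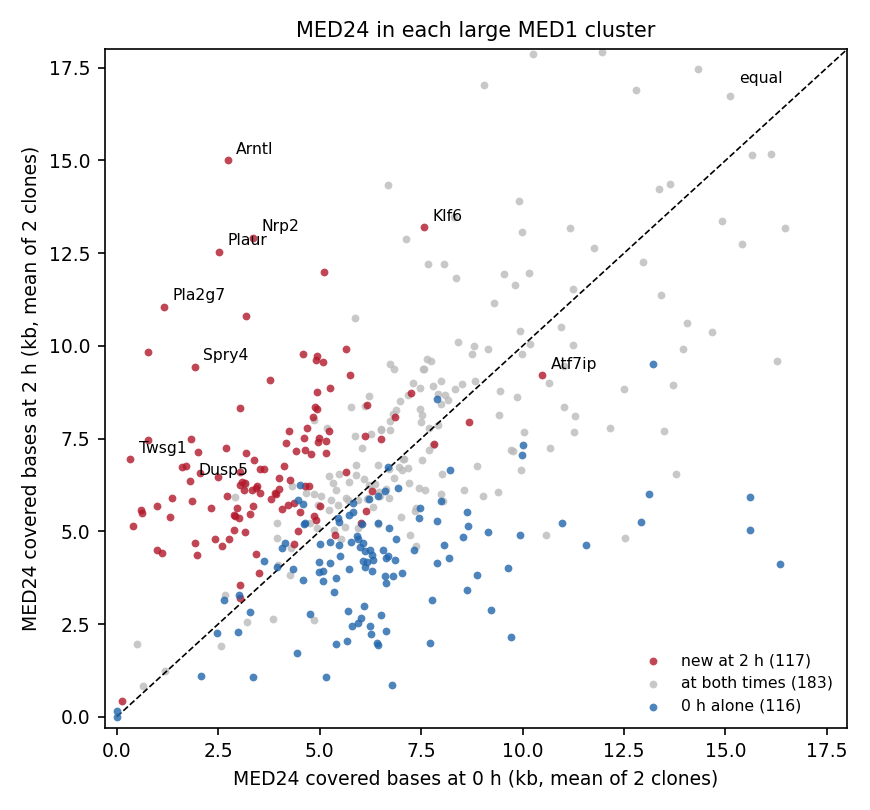
MED24 covered bases per large MED1 cluster at 2 h (vertical, kb) against 0 h (horizontal, kb), each the mean of 2 clones, with new clusters in red, shared ones in grey and those of 0 h alone in blue, and a dashed line of equal values. Most red points lie above the line, Atf7ip lies below it, and 5 shared clusters lie outside the axes, which end at 18 kb.

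When the same rule was applied to the MED24 lists alone, 83 of the 117 new MED1 clusters (70.9%) overlapped one of the 300 largest MED24 clusters of 2 h, and 13 (11.1%) one of the 300 of 0 h. Seen from MED24, 84 of its 300 clusters of 2 h (28.0%) and 13 of its 300 of 0 h (4.33%) overlapped a new MED1 cluster. The rule gave 137 new MED24 clusters, and the overlap with them was 72, or 61.5% of the new MED1 clusters and 52.6% of the new MED24 clusters. There were 136 MED24 clusters of 0 h alone, of which 2 (1.47%) overlapped a new MED1 cluster. Shared MED1 clusters overlapped large MED24 clusters of 2 h in 145 of 183 cases and of 0 h in 146, and 17 of them overlapped a new MED24 cluster (9.29%). Ranks depend on list length, and the 2 h lists of clone b were the longest of either protein.

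MED24 differences were larger where the MED1 cluster of 0 h had been smaller. In the 39 clusters ranked no lower than 600 at 0 h, MED24 at 2 h was 1.22-fold (clone a) and 1.45-fold (clone b) of that at 0 h, and 30 were higher and 2 lower in both 2 h libraries. In the 25 ranked between 600 and 1000 it was 1.52-fold and 1.79-fold, and 22 were higher. In the 53 below rank 1000 or without a 0 h cluster it was 2.42-fold and 3.07-fold, and all 53 were higher. The 0 h rank comes from MED1 and is part of the rule, so this ordering is a description.

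The largest new cluster, rank 9 at 2 h and 2560 at 0 h, spanned chr7:24449005-24489066 and overlapped Plaur and Cadm4. It held 20.854 and 19.81 kb of MED1 at 2 h, against 3.229 and 1.564 kb at 0 h. MED24 covered 12.371 and 12.711 kb at 2 h, against 2.866 and 2.175 kb at 0 h, so both proteins were several times more extensive in both clones. The second, at Ahnak (chr19:8980541-9020627, rank 13 against 1670), held nearly as much MED1, 18.765 and 18.474 kb at 2 h, against 2.28 and 2.95 kb at 0 h. Its MED24 was less extensive, 6.148 and 5.742 kb at 2 h, against 2.509 and 2.904 kb at 0 h. The third lay at Spry4, a Sprouty inhibitor of receptor tyrosine kinase and ERK signalling, and the neighbouring Arhgap26 on chromosome 18. Its MED24 covered 7.868 and 11.016 kb at 2 h, against 2.143 and 1.686 kb at 0 h, and 6 of its 22 regions were called in MED24 at 2 h alone.

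The cluster at Arntl (chr7:113139942-113208107), ranked 27 at 2 h and 7386 at 0 h, had the largest MED24 difference of the 117. MED24 covered 14.111 and 15.896 kb at 2 h, against 2.802 and 2.664 kb at 0 h, a mean difference of 12.3 kb. Of its 24 member regions 10 were called in MED24 at 2 h alone, in both clones, the most in any new cluster. The promoter printed above lies near the far end of this cluster. The next largest MED24 differences were 10.0 kb at Plaur and Cadm4, 9.89 kb at Pla2g7, 9.55 kb at Nrp2 and 9.08 kb at the S100a genes.

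Pla2g7 encodes a secreted phospholipase that inactivates platelet-activating factor. Its cluster (chr17:43554597-43573974, rank 58 against 10484) held 10.396 and 11.725 kb of MED24 at 2 h, against 1.267 and 1.067 kb at 0 h. At Nrp2, a receptor for semaphorins and VEGF, MED24 covered 12.281 and 13.559 kb at 2 h, against 2.918 and 3.815 kb at 0 h (chr1:62764485-62794972). The cluster over S100a2 to S100a6, which encode small calcium-binding proteins, ranked 77 at 2 h and 13086 at 0 h, the lowest 0 h rank among the new clusters that had one. It held 9.332 and 10.358 kb of MED24 at 2 h, against 0.790 and 0.745 kb at 0 h (chr3:90583330-90629874). In these 3 clusters the groups were far apart in both clones.

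**Figure D3:**
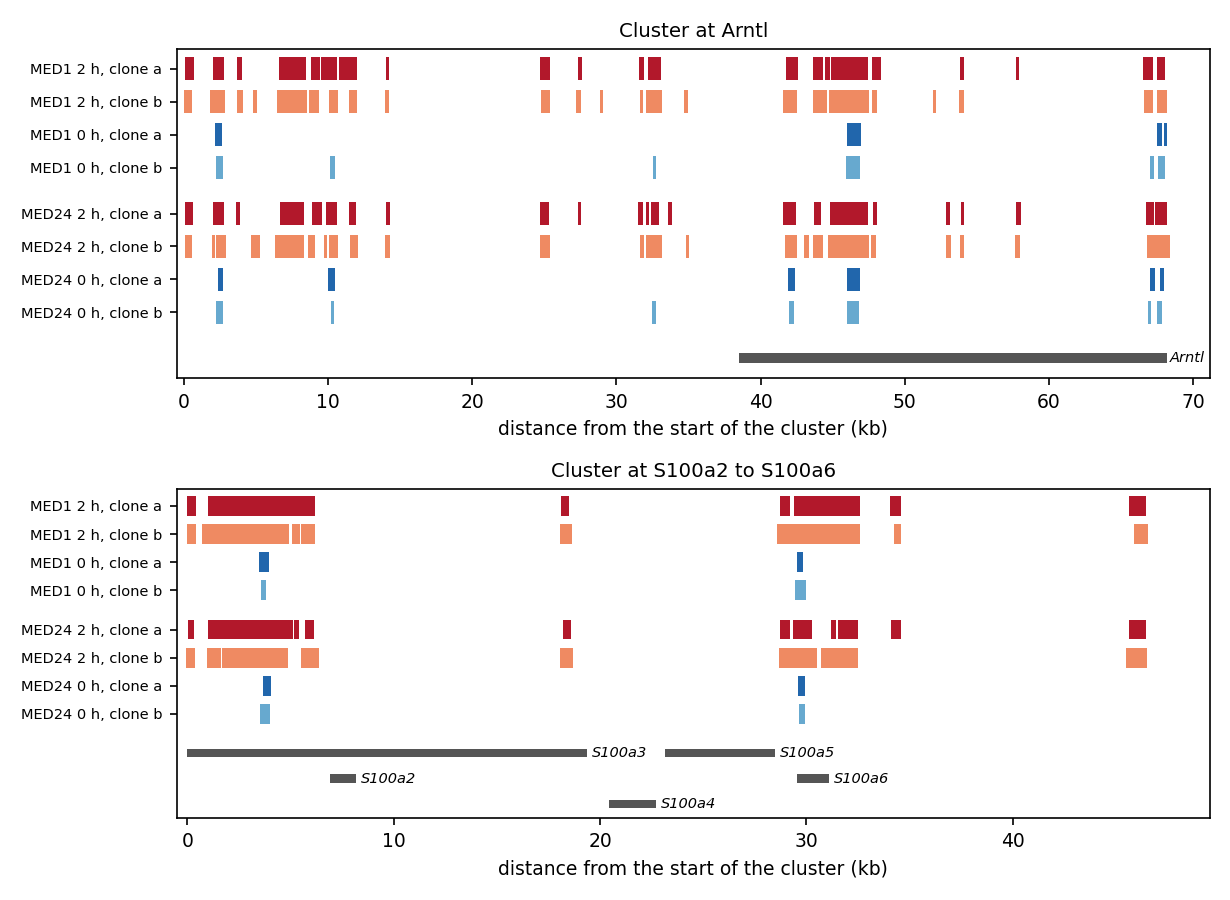
Peaks of the 8 libraries along the clusters at Arntl and at S100a2 to S100a6, by distance from the start of the cluster (kb), with RefSeq gene extents, drawn to the cluster's edge, as grey bars. In each cluster the 0 h libraries have few peaks, and the 2 h libraries of both proteins have further peaks between them. Only the last MED1 peaks of the Arntl cluster, from about 67.5 kb on, are of similar extent at the 2 times.

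At Klf6, a zinc finger factor of the immediate early response (rank 28 against 464), MED24 covered 11.544 and 14.874 kb at 2 h, against 8.328 and 6.805 kb at 0 h. At Fis1, a mitochondrial fission gene, and Cldn15, a tight junction gene, it covered 9.620 and 12.016 kb, against 2.820 and 3.558 kb. In both of these clusters the 2 h libraries lay above the 0 h libraries.

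In 6 others of the 15 largest, the 2 h libraries also lay above the 0 h libraries in MED24. The imprinted neighbours Sgce and Peg10 had 6.693 and 7.633 kb at 2 h, against 4.770 and 4.038 kb at 0 h. The cluster from Gpatch3 to Zdhhc18, which includes the 14-3-3 gene Sfn, had 8.994 and 10.258 kb, against 4.753 and 5.076 kb. The cluster nearest to Col18a1, a basement membrane collagen gene 16.332 kb away, had 9.008 and 10.847 kb, against 5.626 and 5.678 kb. Dusp16, a phosphatase of stress-activated MAP kinases, and Crebl2 shared a cluster with 8.144 and 11.439 kb, against 4.460 and 4.728 kb. Hs3st3b1, an enzyme of heparan sulfate synthesis, had 8.622 and 9.518 kb, against 4.181 and 3.356 kb. At Hmga1, an architectural chromatin protein, and AI413582, the values were 8.546 and 8.961 kb at 2 h, against 5.314 and 4.568 kb at 0 h.

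**Figure D4:**
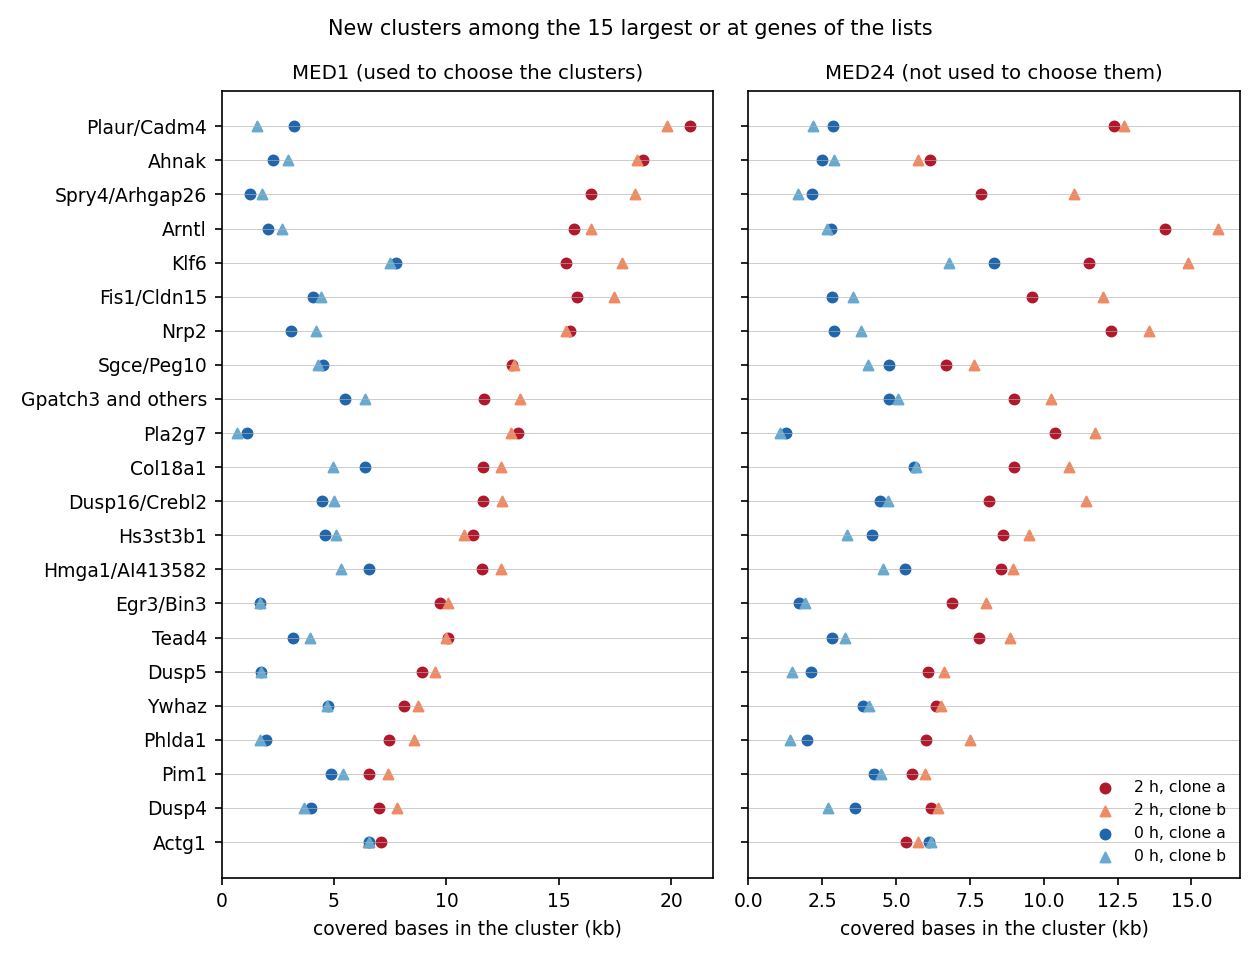
Covered bases (kb) of MED1 (left, used to choose the clusters) and MED24 (right, not used) per library in the new clusters described among the 15 largest and, below Hmga1, in further ones at genes of the lists. Red and orange mark 2 h and blue shades 0 h, and for MED24 every named cluster except Actg1 has both 2 h points to the right of both 0 h points.

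The differences of the large clusters were not shared by all. MED24 was lower by most at the cluster nearest to Atf7ip, which encodes a partner of the histone methyltransferase SETDB1, with 8.631 and 9.796 kb at 2 h, against 10.426 and 10.551 kb at 0 h. MED1 there did not separate the times, with 9.226 and 11.1 kb at 2 h, against 10.062 and 11.238 kb at 0 h, and the cluster had ranked 303 at 0 h. At Actg1, the gene of gamma actin (rank 284 against 306), MED24 covered 5.351 and 5.752 kb at 2 h, against 6.109 and 6.190 kb at 0 h. Mean MED24 differences were -0.788 kb at Rbpj, the DNA-binding effector of Notch signalling, -0.720 kb at the atypical cadherin gene Fat1 and -0.465 kb at Scd2, a fatty acid desaturase gene. At Rbpj the clones differed, with 4.167 and 6.303 kb at 2 h, against 6.003 and 6.043 kb at 0 h. The cluster at Plec, singled out after its values were seen, had MED1 without much MED24. MED1 covered 6.979 and 7.552 kb there at 2 h, against 0 and 0.221 kb at 0 h, but MED24 covered 0.493 and 0.375 kb at 2 h, against 0.237 and 0 kb at 0 h.

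A listed gene is counted in a cluster that overlaps it or, where the cluster overlaps no protein-coding gene, is nearest to it within 100 kb. Of the 177 genes in 13 lists, 4 of the 17 ERK feedback genes so lay in new clusters, Phlda1 only as the nearest gene. Etv5 lay in a shared cluster and none in a cluster of 0 h alone. Over all lists, 10.3% of new, 14.2% of shared and 11.2% of 0 h alone clusters lay at a listed gene. The share over all protein-coding genes was not computed, so the counts are a description. The lists were chosen with earlier results of these data known. All 4 had more MED24 in both 2 h libraries, as did 105 of the 117 new clusters (89.7%), so this does not set them apart. Spry4 is described above. Dusp5 and Dusp4 encode phosphatases that inactivate ERK in the nucleus. MED24 covered 6.100 and 6.615 kb at Dusp5 at 2 h, against 2.126 and 1.485 kb at 0 h, with 4 of 14 regions called at 2 h alone. At Dusp4 it covered 6.178 and 6.430 kb at 2 h, against 3.6 and 2.707 kb at 0 h. The cluster nearest to Phlda1, a growth factor induced gene 60.58 kb away, had 6.027 and 7.522 kb at 2 h, against 2.001 and 1.405 kb at 0 h.

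Immediate early genes were divided among the kinds of cluster. Of 18, Klf6 and Egr3 lay in new clusters, Egr1, Fosb, Ier2, Ier3, Junb and Jund in shared ones, and Fos in one of 0 h alone. At Egr3, a zinc finger factor, and Bin3, MED24 covered 6.912 and 8.060 kb at 2 h, against 1.717 and 1.929 kb at 0 h. None of the 15 naive pluripotency genes lay in a new cluster, while Klf2, Klf5, Nanog and Zfp42 lay in shared clusters and Esrrb, Fgf4, Klf4 and Prdm14 in clusters of 0 h alone. Of 13 core pluripotency genes, 7, including Pou5f1 and Sox2, lay in shared clusters. Of 12 genes of LIF and STAT3 signalling, the kinase gene Pim1 lay in a new cluster, with 5.542 and 5.985 kb at 2 h, against 4.271 and 4.484 kb at 0 h, and Bcl3, Pim3, Socs3 and Spp1 lay in clusters of 0 h alone.

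Of the other lists, Tead4, a transcription factor of the trophectoderm, had 7.824 and 8.852 kb of MED24 at 2 h, against 2.831 and 3.259 kb at 0 h. Ywhaz, a 14-3-3 gene on the housekeeping list, had 6.352 and 6.530 kb at 2 h, against 3.881 and 4.093 kb at 0 h. Ahnak and Actg1 were the members of 20 cytoskeleton and adhesion genes found in new clusters. No gene of the primitive endoderm, formative epiblast, fibroblast, Hippo or Wnt lists lay in one. In all, 12 of the 117 new clusters (10.3%) lay at a listed gene, against 26 of 183 shared clusters (14.2%) and 13 of 116 of 0 h alone (11.2%). Clusters are not independent of gene length and density, and no test was made of a list.

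The second question was whether the difference lay in regions with MED24 at 2 h alone or in regions with MED24 at both times. Of the 1226 member regions, 219 (17.9%) had a MED24 peak in each 2 h library but in no 0 h library, here called gained. Over all 78166 regions the share was 13.1%. The reverse, lost, applied to 17 (1.39%), against 7.18% of all regions. Regions of the same clusters and libraries are not independent, so no interval is given for these shares. MED24 was called in all 4 libraries in 425 members, in other patterns in 297 and in none in 268. In shared clusters 181 of 2292 regions were gained (7.90%) and 85 lost (3.71%). At least 1 gained region lay in 98 of the new clusters and at least 3 in 32, and 86 clusters had a gained region and no lost one. Such counts depend on how many regions a cluster holds, and they were not made over all MED1 clusters. New clusters had a median of 2 gained regions among 9 members (quartiles 1 and 3 gained). Shared clusters had a median of 1 among 12 (quartiles 0 and 1). In MED1, which the rule used, 353 members were gained and 11 lost, against 14.5% and 5.6% of all regions.

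The MED1 and MED24 patterns of single regions were set side by side. Of the 353 members gained in MED1, 177 (50.1%) were gained in MED24 as well, a smaller share than the 62.2% over all regions gained in MED1. A further 71 (20.1%) had no MED24 peak in any library, against 11.6% of all regions gained in MED1. Of the 415 members called in all 4 MED1 libraries, 365 (88.0%) were called in all 4 MED24 libraries, against 84.8% over all regions. Another 13 (3.13%) were gained in MED24, against 1.81% over all regions. Gained members lay a median of 4.63 kb from the nearest member called in all 4 MED24 libraries of their cluster (quartiles 1.51 and 8.53 kb), and no cluster with a gained member lacked such a region. In shared clusters this distance was 2.93 kb.

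The 425 regions called in all 4 libraries accounted for 194 kb of the MED24 difference, or 52.9%. Gained regions accounted for 125.5 kb (34.2%), regions of other patterns for 53.4 kb (14.6%) and lost regions for -6.37 kb (-1.74%). The regions called in all 4 had a median MED24 width of 876 and 1000 bp at 2 h, against 693 and 675 bp at 0 h. In both clones 249 of them (58.6%) were wider at 2 h and 63 (14.8%) were narrower. A merged region can hold several MED24 peaks, so further peaks in a region and wider ones are not told apart. In the new clusters MED24 peaks numbered 968 and 1046 at 2 h, against 672 and 635 at 0 h. They averaged 776 and 822 bp per peak at 2 h, against 672 bp in each 0 h library. Over all 21232 regions called in all 4 MED24 libraries, 32.9% were wider and 32.4% narrower, and in shared clusters 29.9% and 36.3%.

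**Figure D5:**
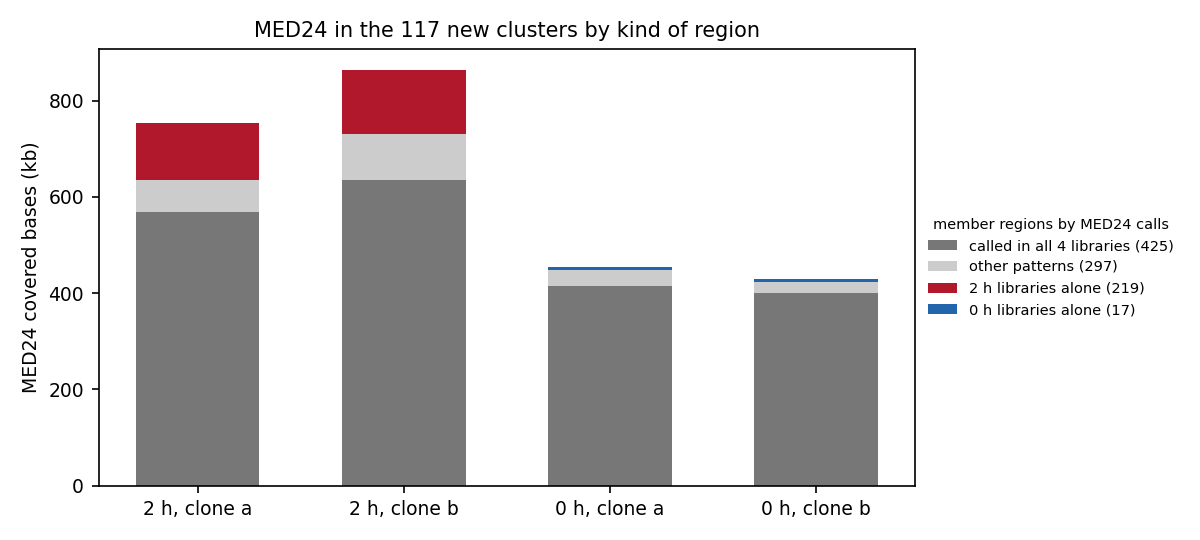
MED24 covered bases (kb) of the member regions in each MED24 library, stacked by the libraries in which the region was called, with regions counted whole where they reach past a cluster's edge. The grey part, regions called in all 4 libraries, is taller at 2 h (568 and 635 kb) than at 0 h (415 and 401 kb), and gained regions add 119 and 132 kb in red at 2 h.

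The same 425 regions also stood higher within their lists at 2 h. Their mean MED24 percentile was 75.6 and 78.0 at 2 h, against 67.1 and 64.6 at 0 h, a shift of 10.9 points, with 8.49 for clone a and 13.4 for clone b (exact permutation p = 0.333). It was higher in both clones in 260 regions (61.2%) and lower in both in 89 (20.9%). Over all 21232 such regions the shift was -0.204 points, with -3.70 for clone a and 3.29 for clone b, with 34.4% up and 36.8% down. In shared clusters it was -0.652 points and in clusters of 0 h alone -11.9 points.

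A gene start lay in 118 members (9.62%), against 12.2% of all regions, while 578 (47.1%) lay inside a gene and 530 (43.2%) between genes. Of the gained members 6 (2.74%) lay at a gene start, against 4.55% of all gained regions, and of those called in all 4 libraries 97 (22.8%), against 33.4%. The 5 gained members with the best MED24 percentiles at 2 h lay away from gene starts and were also gained in MED1. Of these, 4 lay 7.359 kb from Brpf3 (chr17:28792496-28793766), 1.591 kb from Ankrd12 in the Twsg1 cluster (chr17:65959027-65964111), inside Efr3b near Pomc (chr12:3970802-3975898) and 80.054 kb from Reep3 (chr10:66927551-66929134). The lowest of these stood at 99.41 and 99.66 (Reep3), and no 0 h library of MED24 or MED1 had a peak in any of the 5.

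Of the microRNAs in the RefSeq table, 3 hairpins lay in member regions, and they are named after their values were seen. Mature sequences of the first 2 are shown with the seed, bases 2 to 8, in capitals, because their hairpins lie in member regions with more MED24 covered bases at 2 h. The 3 seeds differ.
miR-21a-5p: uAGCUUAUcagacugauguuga
miR-21a-3p: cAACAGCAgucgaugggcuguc
miR-135b-3p: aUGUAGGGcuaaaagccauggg

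Mir21a, a widely expressed microRNA gene known to respond to AP-1 in other cells, lay in the cluster at Vmp1. MED24 covered 5.179 and 5.328 kb of its region (chr11:86581750-86588029) at 2 h, against 1.687 and 1.944 kb at 0 h. The region of Mir135b in the Lemd1 cluster (chr1:132197345-132202481) had 3.813 and 4.225 kb of MED24 at 2 h, against 1.52 and 1.656 kb at 0 h. Both regions were called in all 4 MED24 libraries, so MED24 peaks were present in them at both times. The region of Mir6935 in the Actg1 cluster (chr11:120347209-120351218) had 3.527 and 3.384 kb at 2 h, against 3.858 and 3.902 kb at 0 h. No RNA was measured in these samples, so the files do not show whether any of these genes or microRNAs changed in level.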

How the data were processed

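ChIP-seq peak lists of 4 MED1 and 4 MED24 libraries were used, grouped by sample title. Peaks were deposited per library. Bowtie2, bedtools, MACS2 and mm10 are named in the submitters' processing notes, without versions or settings, and how the inputs entered the calls is also not given in the sources used here. The MED1 lists hold, as deposited by the authors, a score per peak with its fold enrichment (ratio) and its −log10 p and q values. The score was 10 times −log10 q, rounded down, in 100% of MED1 peaks. The MED24 lists hold positions and a score deposited by the authors. MED24 peak names carry FLAG and a folder named for another cofactor, EP300, and the labels were followed. Lists held 37483 to 48931 peaks with median widths of 406 to 439 bp. The lowest score was 20 in each. Read depth is unknown, so precision rests on 2 clones per group. These per-peak values served solely for ranks and filters inside 1 list, MED1 by −log10 p and MED24 by score.

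Regions were merged at an overlap of 1 bp and stitched as described, and a member overlaps a cluster by at least 1 bp. Gene spans, starts, promoters and microRNAs came from RefSeq tables of GRCm38.p6 (21887 protein-coding genes). A cluster was assigned to the protein-coding genes it overlaps or else the nearest within 100 kb. All 177 listed genes were found. Values per library were compared with exact two-sided permutation tests. Clones a and b recur in every group and each clone is 1 cell line, so the clone pairs the samples. Whether a library is a separate culture is not given, so p-values measure the spread between these libraries. Alternatives covered stitching, cluster number, ranking, list length, score, clone requirement, overlap and left-out libraries. The members and lists were chosen with earlier results of these data known. Named by rule are the 15 largest new clusters, the 5 with the largest and the 5 with the smallest MED24 difference, those at listed genes, 3 on each side of the threshold, and 5 gained regions. A few that the rule names are not reported here. The procedure was tested on simulated lists. Python 3.11.15, numpy 2.4.6, pandas 2.3.3, scipy 1.17.1 and matplotlib 3.10.9 were used.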

Additional observations from a re-analysis of the deposited data

Results flagged for a closer look

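Among the new clusters, those at Atf7ip and Actg1 moved against the other clusters in MED24. MED24 covered bases, 2 h minus 0 h, were -1.275 kb at Atf7ip and -0.598 kb at Actg1, with both 2 h libraries below both 0 h libraries, while 105 of the 117 clusters had both 2 h libraries above. The difference from the other clusters was not tested. At 0 h the largest MED1 cluster in each ranked 303 and 306, just under the 300 largest. The span at Atf7ip held 10.935 kb in 1 MED1 cluster at 2 h, against 11.111 kb in 2 clusters at 0 h.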

How the results depend on the processing

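All values kept their direction under every alternative run. With 500 clusters in place of 300, 188 were new and 160 of them had more MED24 in both 2 h libraries (85.1%). The share of members gained in MED24 was 15.6% with stitching over 5 kb, against 13.1% of all regions. Leaving out 1 library at a time gave 16.3% (without the 2 h MED1 library of clone b) to 26.2% (without the 2 h MED24 library of clone a), against 13.1% and 21.8% of all regions under the same settings, since with 1 MED24 library at a time fewer calls decide a gain. Members stayed above all regions in each of the 18 settings, by 2.53 percentage points or more. Ranking by span gave the smallest MED24 differences, with 115 of 164 new clusters higher (70.1%), a log2 ratio difference of 0.45 and a percentile shift of 4.79 points. Over all settings the difference in share of the MED24 lists was 0.868 to 1.66 percentage points, the log2 ratio difference 0.45 to 1.02, the percentile shift 4.79 to 13.4 points and the number of new clusters at listed genes 8 to 14. With the clone as a replicate block the differences were 1.28 percentage points, 0.86 and 10.9 points as before, and the exact sign-flip test gave p = 0.5, the smallest that 2 pairs can reach. No paired fit across regions was made. With 2 clones per group and no read numbers, no single cluster can be tested.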
